A study of Mus musculus with 10 samples.

Results

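Heat shock proteins and their DNAJ cochaperones were followed through 6 CUT&Tag peak lists from mouse macrophages. The members are the protein-coding genes whose symbols begin with Hspa, Hspb, Hspd, Hspe, Hsph, Hsp90 or Dnaj in the RefSeq gene table of GRCm38.p6, the assembly that mm10 names. Among 21887 protein-coding genes placed on assembled chromosomes, the rule took 74. Of these, 45 are DNAJ genes, 14 belong to the HSP70 and HSP110 families, 3 are HSP90 genes, 10 begin with Hspb, and the others are the chaperonin genes Hspd1 and Hspe1. The prefix also takes in Hspbp1 and Hspbap1, which encode binding partners and not small heat shock proteins, and Hspb11, a subunit of the transport machinery of cilia. From textbook knowledge 43 members were classed as constitutive, 12 as stress-inducible and 18 as tissue-restricted, and Hspb11 was left unclassed. The classes were written with earlier results of these data known.

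In CUT&Tag an antibody guides an enzyme that cuts and labels nearby chromatin, so that reads pile up at the bound sites. An antibody against nucleophosmin (NPM1), a nuclear histone chaperone, was used on wild-type (WT) cardiac macrophages from hearts at day 3 after myocardial infarction and on WT cardiac macrophages from hearts at day 3 after a sham operation. The same antibody was used on WT bone marrow-derived macrophages treated with interleukin-4 (IL-4) at 20 ng/ml, labelled 12 hours, and on untreated ones labelled 0 hours, both cultured beforehand for 7 days in M-CSF at 50 ng/ml, the growth factor that turns marrow cells into macrophages. An antibody against H3K4me3, the trimethyl mark that histone H3 carries at active promoters, was used on Npm1 conditional-knockout and on WT cardiac macrophages at day 3 after infarction. The sources used here name neither the Cre driver, nor the deleted part of Npm1, nor the number of hearts behind a library. The series has 10 libraries, of which 4 from IL-4-treated marrow macrophages are not analysed here. Each group is 1 library, so differences between groups have no replicate check and were not tested.

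Heat shock proteins bind unfolded stretches of other proteins and help them fold, assemble or reach degradation. HSP70 proteins work in a cycle driven by ATP, which DNAJ proteins start through a conserved J domain and HSP110 proteins such as Hsph1 reset by exchanging the nucleotide, while HSP90 proteins act later on nearly folded clients such as kinases and steroid receptors. Many members are expressed in all cells, others are switched on by heat shock factor 1 or by stress of the endoplasmic reticulum (ER), and a further set is made mainly in testis, muscle or neurons.

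The 6 lists held between 52977 and 104514 peaks. Depth differed within each pair. The most frequent background, read from the deposited values as overlapping reads per position, was 3.03 in the infarct NPM1 list and 1.29 in the sham NPM1 list, 4.18 in the IL-4 and 1.31 in the untreated NPM1 list, and 2.49 in the knockout and 2.92 in the WT H3K4me3 list. Macrophage markers had peaks in the deeper lists, at 14 of 14 genes in the infarct and IL-4 NPM1 lists and in the knockout H3K4me3 list and at 13 of 14 in the WT H3K4me3 list. The sham list had a peak at 2 and the untreated list at 1 of the 14, so the cell type could not be checked in them. Of 12 cardiomyocyte markers, 3 had a peak in the infarct, 1 in the sham, 5 in the IL-4, 0 in the untreated, 2 in the knockout and 2 in the WT list, with a −log10 q of 5 reached by none. Endothelial markers had peaks at 2, 0, 5, 0, 3 and 3 of 10 in the same lists, neutrophil markers at 4, 1, 4, 0, 3 and 3 of 10, and fibroblast markers at 2, 1, 2, 0, 7 and 2 of 10. A −log10 q of 5 was reached by 4 fibroblast, 2 neutrophil and 1 endothelial markers in the knockout and by 0, 0 and 1 in the WT H3K4me3 list, and the part of these cells in the results was not tested. None of the NPM1 lists analysed here comes from knockout cells, so they do not check the loss of the protein, and the H3K4me3 peak at the ends of Npm1 itself, with a fold of 7.97 in the knockout list and 7.60 in the WT list, says nothing about it.

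A gene was counted as marked where a called peak reached, by at least 1 base, into a window of 1 kb around either annotated gene end, counted to both sides, and such a peak is called a gene-end peak here. NPM1 was called at most of the constitutive and stress-inducible chaperone genes in the infarct and IL-4 lists and at few in the sham and untreated lists. In the infarct NPM1 list 61 of 74 members (82.4%) had a gene-end peak, beside 50.6% of all genes, and in the sham NPM1 list 10 members (13.5%) had one, beside 10.9%. In the IL-4 NPM1 list 58 members (78.4%) had one, beside 51.2% of all genes, and in the untreated NPM1 list 6 (8.11%), beside 6.71%. H3K4me3 peaks stood at 66 members (89.2%) in the knockout list, beside 61.8% of all genes, and at 60 (81.1%) in the WT list, beside 57.1%. The members' share was above that of all genes in the 4 deeper lists and within 3 percentage points of it in the sham and untreated lists.

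Constitutive members were marked more often than tissue-restricted ones in all 4 deeper lists. Of the 43 constitutive members, 39 had a gene-end peak in the infarct list, 4 in the sham list, 39 in the IL-4 list, 3 in the untreated list, 41 in the knockout list and 39 in the WT list. Of the 12 stress-inducible members the counts in the same lists were 11, 4, 11, 2, 12 and 11. Of the 18 tissue-restricted members they were 10, 2, 7, 1, 12 and 9, which is 55.6% in the infarct, 38.9% in the IL-4, 66.7% in the knockout and 50% in the WT list. Of all genes, 50.6%, 10.9%, 51.2%, 6.71%, 61.8% and 57.1% were marked in the 6 lists in the same order. The tissue-restricted share was thus above that of all genes in the infarct and knockout lists and below it in the IL-4 and WT lists. Fewer members of each class had strong peaks. With a −log10 q of 5 or more, 30 constitutive, 8 stress-inducible and 4 tissue-restricted members were marked in the infarct list, beside 27.9% of all genes, and 0 members of any class in the sham list, beside 0.681%. In the IL-4 list 31, 9 and 4 members reached that level, beside 29.4% of all genes, and in the untreated list only Hspa4 did, beside 0.397%. In the knockout H3K4me3 list 39, 11 and 10 reached it, beside 57% of all genes, and in the WT H3K4me3 list 35, 10 and 7, beside 42.8%.

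**Figure D1:**
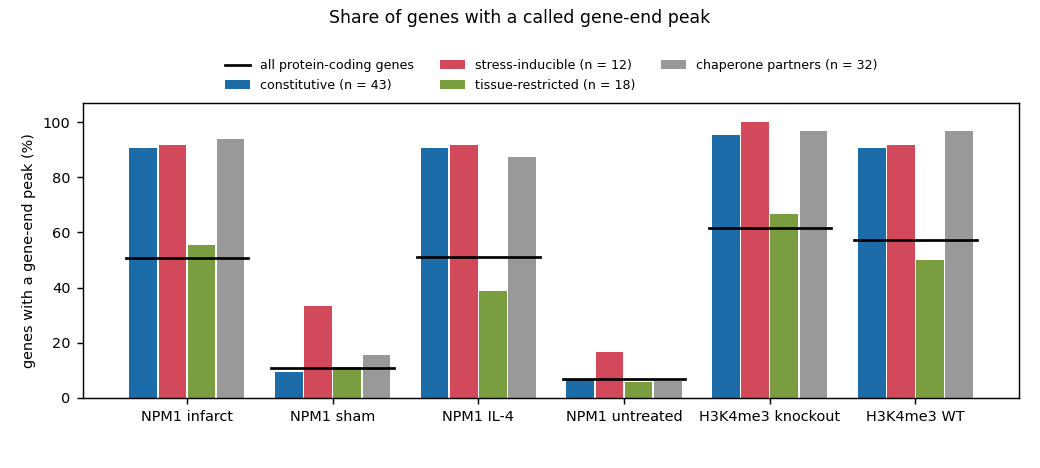
Share of genes (%, vertical axis) with a called gene-end peak in each of the 6 lists (horizontal axis) for 43 constitutive, 12 stress-inducible and 18 tissue-restricted members and 32 chaperone partners; the black line is the share of all 21887 protein-coding genes. In the infarct list 90.7% of the constitutive and 55.6% of the tissue-restricted members were marked, against 50.6% of all genes.

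Peaks in the infarct and IL-4 NPM1 lists and in both H3K4me3 lists were found at 55 members, against 40% of all genes. This count takes no account of the sham and untreated lists. Dnaja4, a stress-inducible type A J protein, was the only member marked in all 6 lists. Dnajb7, Dnajc1, Dnajc5b and Dnajc6 had no gene-end peak in any list. How many of all genes were marked in every list or in none was not counted, so neither is called particular to the members. Dnajb7 is a testis J protein, Dnajc5b a relative of cysteine string protein that is made mainly in testis, and Dnajc6 is auxilin, the neuronal cofactor that uncoats clathrin vesicles. Dnajc1, an ER membrane J protein classed as constitutive, had covered bases farther out, 903 bp in the knockout and 904 bp in the WT H3K4me3 list within 2 kb of a gene end.

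**Figure D2:**
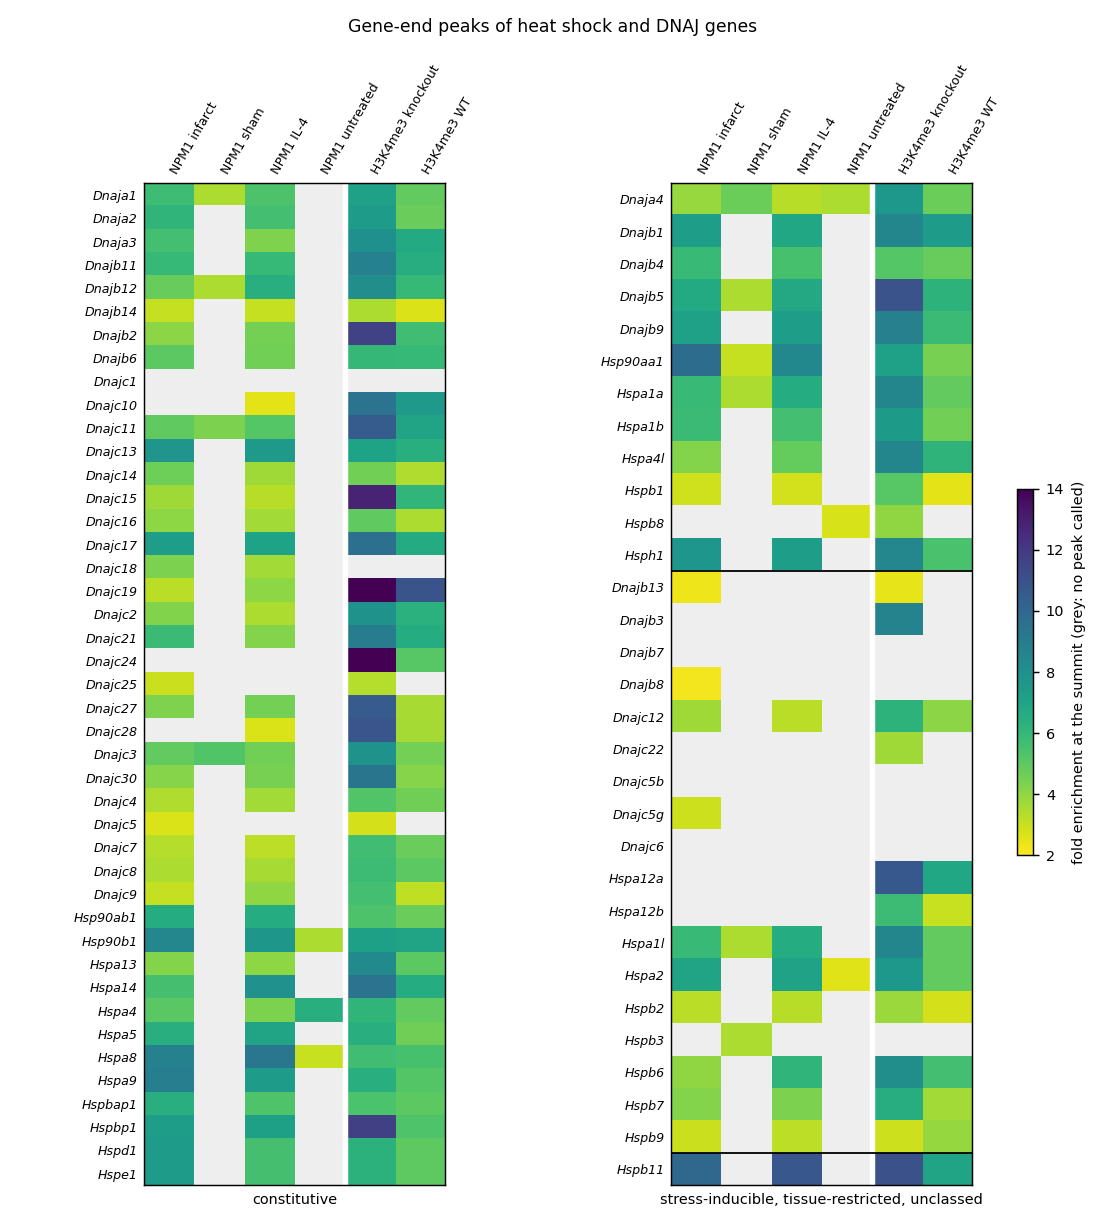
Deposited fold enrichment (colour) at the summit of the strongest gene-end peak of each member (rows) in each of the 6 lists (columns), with constitutive members on the left and stress-inducible, tissue-restricted and unclassed members, split by black lines, on the right; grey means that no peak was called. The sham and untreated columns are grey at all but 10 and 6 members, and folds of different columns also differ with the depth of the lists.

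Hspa8, the constitutive cytosolic HSP70 that also uncoats clathrin, carried the NPM1 peak with the highest −log10 q of all members in the infarct and IL-4 lists. The gene lies at chr9:40801276-40805202 (mm10), and the infarct peak spans chr9:40800598-40801970 at its lower end. Its deposited fold and −log10 q were 8.72 and 75.8 in the infarct list, while no gene-end peak was called in the sham list. They were 9.29 and 88.9 in the IL-4 list and 3.03 and 0.850 in the untreated list. In the H3K4me3 lists they were 5.68 and 90.2 in the knockout and 5.49 and 18.3 in the WT library. Among all genes with a peak, Hspa8 ranked 25 by q in the infarct list and 33 in the IL-4 list, within the top 0.226% and 0.294%, but 6419 and 2518 in the knockout and WT H3K4me3 lists. The infarct summit had 135 overlapping reads, with a 95% Poisson interval of 113 to 160, over a local background of 14.6, and the IL-4 summit had 151 (128 to 177) over 15.4. The untreated summit had 6 reads, with an interval of 2.20 to 13.1. Such intervals cover counting error only, and fold and q of different lists set side by side also carry how deep and how enriched each library is, so a difference between them is no measure of change at that gene.

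The heat-inducible HSP70 genes lie in a cluster on chromosome 17 with the testis gene Hspa1l. Hspa1a (chr17:34969359-34972156) and Hspa1l (chr17:34972703-34979228) run in opposite directions from neighbouring starts and shared 1 peak in every list where either had one, so that their values are the same by construction. That shared peak had a fold of 5.90 and a −log10 q of 25.3 in the infarct list and 3.49 and 1.56 in the sham list. The values were 6.56 and 37.0 in the IL-4 list, and the untreated list had no peak. They were 8.47 and 83.8 in the knockout and 4.89 and 12.2 in the WT H3K4me3 list. Hspa1b (chr17:34956429-34959238) had peaks with folds of 5.83 in the infarct list, 5.58 in the IL-4 list, 7.45 in the knockout list and 4.55 in the WT list, and none in the sham and untreated lists. The pair is set out here because the 250 bases before the starts of Hspa1a and Hspa1b agree at 247 positions (98.8%), and near-identical copies leave the place of short reads uncertain in both. Capitals mark GAANNTTC, a 2-unit heat shock element, in the bases before the RefSeq start (GRCm38.p6, minus strand, chr17:34972157-34972406 for Hspa1a and chr17:34959239-34959488 for Hspa1b), 5′ to 3′:
Hspa1a: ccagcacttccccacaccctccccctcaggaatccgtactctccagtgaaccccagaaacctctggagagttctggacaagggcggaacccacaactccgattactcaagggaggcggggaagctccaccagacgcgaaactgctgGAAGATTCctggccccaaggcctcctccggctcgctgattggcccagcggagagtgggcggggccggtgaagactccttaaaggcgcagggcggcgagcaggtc
Hspa1b: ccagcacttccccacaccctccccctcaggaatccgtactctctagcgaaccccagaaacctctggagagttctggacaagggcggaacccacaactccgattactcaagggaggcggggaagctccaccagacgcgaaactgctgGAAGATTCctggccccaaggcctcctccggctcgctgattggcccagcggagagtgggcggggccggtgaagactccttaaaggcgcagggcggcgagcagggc
The element ends 97 bases before the start in both, and the infarct and IL-4 NPM1 peaks cover it in both genes.

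The other cytosolic HSP70 and HSP110 genes had lower NPM1 folds than Hspa8 in the infarct and IL-4 lists. Hsph1 (chr5:149616843-149636498), the inducible HSP110 nucleotide exchange factor, had a fold of 7.69 in the infarct list, 7.33 in the IL-4 list, 8.43 in the knockout list and 5.45 in the WT list, with no peak in the sham and untreated lists. Hspa4, a constitutive HSP110-type gene, had folds of 5.07 in the infarct, 4.35 in the IL-4, 6.15 in the knockout and 4.87 in the WT list. In the untreated list it had the strongest member peak, with a fold of 6.48, a −log10 q of 6.98 and 14 reads at the summit (7.65 to 23.5). That peak lies at chr11:53258830-53259206 beyond the far end of the gene, with its summit 41462 bp along from the RefSeq start, and no sham peak was called. The infarct and WT H3K4me3 lists had weaker peaks at that end, with folds of 3.22 and 3.28. Hspa4l, its inducible relative, had folds of 4.22 in the infarct, 4.82 in the IL-4, 8.48 in the knockout and 6.20 in the WT list and no peak in the others. Hspa2, a testis HSP70, had folds of 6.98 in the infarct list, 7.11 in the IL-4 list, 2.59 in the untreated list, 7.60 in the knockout list and 4.90 in the WT list. It thus stood among the strongest tissue-restricted members, although the untreated peak rests on 5 reads (1.62 to 11.7).

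All 3 HSP90 genes were marked in the infarct and IL-4 NPM1 lists and in both H3K4me3 lists. Hsp90aa1 (chr12:110691036-110696395), the inducible cytosolic HSP90, had a fold of 9.77 and a −log10 q of 56.6 in the infarct list and 3.06 and 0.863 in the sham list. Its values were 8.39 and 49.7 in the IL-4 list, with no peak in the untreated list. They were 7.14 and 72.2 in the knockout and 4.45 and 8.56 in the WT H3K4me3 list. By q it ranked 102 of all genes in the infarct list, and the sham peak rests on 6 reads (2.20 to 13.1) and lies at chr12:110697265-110697474, apart from the infarct peak at chr12:110696003-110696836. Hsp90ab1, the constitutive cytosolic form, had folds of 6.57 in the infarct and 6.55 in the IL-4 list, of 5.35 in the knockout and 4.76 in the WT list, and no sham or untreated peak.

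The mitochondrial chaperonin and HSP70 genes were marked by NPM1 in the infarct and IL-4 lists. Hspd1 and Hspe1 encode the chaperonin HSP60 and its lid HSP10, lie head to head on chromosome 1 and shared 1 peak in each list that had one. The peak had a fold of 7.42 and a −log10 q of 23.1 in the infarct list, 5.54 and 14.3 in the IL-4 list, 6.29 and 103 in the knockout list and 4.99 and 13.5 in the WT list. Neither gene had a sham or untreated peak. Hspa9, the mitochondrial HSP70, had folds of 8.87 in the infarct, 7.37 in the IL-4, 6.41 in the knockout and 5.20 in the WT list. Dnajc19, the J protein of the import motor of the inner membrane, and its relative Dnajc15 stood higher in the H3K4me3 lists than in the NPM1 lists. Dnajc19 had a fold of 3.22 and 12 reads at the summit in the infarct NPM1 list and 4.05 in the IL-4 NPM1 list. In the H3K4me3 lists it had the highest fold of all members, 16.8 with 276 reads in the knockout and 10.9 with 53 reads in the WT list. Dnajc15 had folds of 3.72 in the infarct, 3.28 in the IL-4, 12.8 in the knockout and 6.12 in the WT list. Dnaja3, a mitochondrial type A J protein, had folds of 5.59, 4.30, 7.97 and 6.64 in the same 4 lists. None of these 3 J protein genes had a gene-end peak in the sham or untreated list.

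The Hspd1 and Hspe1 pair is shown because a 3-unit heat shock element, searched on both strands as GAA, TTC and GAA with any 2 bases between neighbouring units, lies between the RefSeq starts of both genes under all 4 peaks. It is in capitals below, in the 30 bases at chr1:55088052-55088081 (GRCm38.p6, plus strand, RefSeq), where overlapping matches on both strands run from base 89 to base 72 before the Hspe1 start, 5′ to 3′:
Hspe1: cggtccgTTCTAGAACCTTCCGGAAggccc

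**Figure D3:**
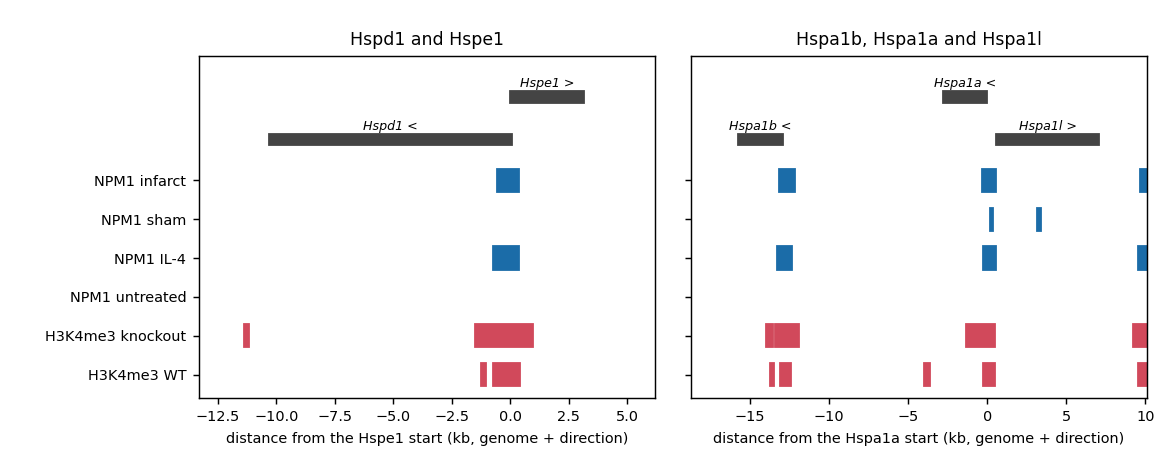
Called peaks (coloured bars, blue for NPM1 and red for H3K4me3) in the 6 lists (rows) at Hspd1 with Hspe1 (left) and at Hspa1b, Hspa1a and Hspa1l (right), against the distance in kb from the Hspe1 or Hspa1a start; dark bars are genes, with arrowheads for their direction. The shared Hspd1 and Hspe1 peak is 950 bp wide in the infarct list and 2462 bp wide in the knockout H3K4me3 list, and the sham row holds a bar of 206 bp near the Hspa1a start.

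Of the ER chaperone genes described here, Hspa5, Hsp90b1, Dnajb9, Dnajb11 and Dnajc3 had peaks in the infarct, IL-4 and both H3K4me3 lists, and Dnajc1 and Dnajc10 did not. Hspa5 (BiP, chr2:34772090-34776529), the HSP70 of the ER lumen, had a fold of 6.49 and a −log10 q of 23.8 in the infarct list and 7.01 and 31.3 in the IL-4 list. It had 6.45 and 90.8 in the knockout and 4.60 and 11.1 in the WT H3K4me3 list, and no sham or untreated peak. Hsp90b1 (GRP94, chr10:86690841-86705444), the ER form of HSP90, had folds of 8.45 in the infarct, 7.66 in the IL-4, 3.46 in the untreated, 7.17 in the knockout and 7.01 in the WT list. No sham peak was called there, the untreated peak rests on 7 reads (2.81 to 14.4), and its strongest peak in each of these lists also reaches an end of Ttc41. Dnajb9 and Dnajb11, ER lumen J proteins that pass clients to Hspa5, had folds of 7.14 and 5.97 in the infarct list, 7.30 and 5.98 in the IL-4 list, 8.80 and 8.73 in the knockout list and 5.81 and 6.51 in the WT list. Dnajc10, the ER disulfide reductase, had no infarct, sham or untreated peak, a weak IL-4 peak (fold 2.51) and H3K4me3 folds of 9.44 in the knockout and 7.57 in the WT list.

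Dnajc3, an ER J protein that restrains the kinase PERK, had the strongest sham peak of the members, with a fold of 5.24, a −log10 q of 4.46 and 11 reads (5.49 to 19.7). That peak lies at chr14:118982265-118982609, at the far end of the gene beside Uggt2, where the infarct and IL-4 lists also had a peak. The infarct peak with the highest −log10 q lies at chr14:118937488-118938118 over the start, with a fold of 4.89, beside 3.94 at the far end. In the IL-4 list the far-end peak was the stronger, with a fold of 4.56 beside 4.25 over the start, and the H3K4me3 peaks lie over the start, with folds of 7.90 in the knockout and 4.50 in the WT list.

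Hspa5, Hsp90b1 and Dnajc3 are the only members of the 60 with a RefSeq start whose window from 250 bases before to 50 after the start holds an ER stress element, searched on both strands as CCAAT, any 9 bases and CCACG (5% of members, 0.166% of all 17492 windows). The bases before their starts are shown because all 3 windows lie within infarct NPM1 peaks. Capitals mark the element, in chr2:34771940-34772089 on the plus strand for Hspa5, chr10:86705445-86705694 on the minus strand for Hsp90b1, which has a match on each strand, and chr14:118937782-118937931 on the plus strand for Dnajc3 (RefSeq, GRCm38.p6), 5′ to 3′:
Hspa5: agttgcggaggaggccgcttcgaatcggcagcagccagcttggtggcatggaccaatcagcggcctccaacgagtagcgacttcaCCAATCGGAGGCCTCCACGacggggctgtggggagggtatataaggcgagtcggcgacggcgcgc
Hsp90b1: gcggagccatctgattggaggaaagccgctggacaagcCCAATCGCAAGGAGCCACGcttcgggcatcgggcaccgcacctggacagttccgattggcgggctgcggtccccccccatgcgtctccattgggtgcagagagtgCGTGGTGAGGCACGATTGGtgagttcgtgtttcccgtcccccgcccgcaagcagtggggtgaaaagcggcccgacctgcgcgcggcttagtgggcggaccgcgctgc
Dnajc3: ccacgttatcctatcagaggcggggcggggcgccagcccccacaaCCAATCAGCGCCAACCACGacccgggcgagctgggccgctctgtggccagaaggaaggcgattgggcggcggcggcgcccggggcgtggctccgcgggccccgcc

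Of the J protein genes, Dnajb1, the main inducible partner of HSP70 (HSP40, chr8:83608175-83612653), had the highest −log10 q in the infarct and IL-4 lists. Its fold and −log10 q were 7.27 and 30.7 in the infarct list and 6.79 and 28.2 in the IL-4 list, with no sham or untreated peak. They were 8.47 and 161 in the knockout and 7.41 and 31.0 in the WT H3K4me3 list. Dnaja1, the constitutive farnesylated J protein, had folds of 5.71 in the infarct, 3.50 in the sham, 5.37 in the IL-4, 7.13 in the knockout and 4.90 in the WT list and no untreated peak. Its infarct, IL-4 and H3K4me3 peaks lie over the start, shared with Aptx, while the stronger of 2 sham peaks, each 200 bp wide, lies at the far end near Smu1 and the weaker, with a fold of 3.06, over the start. Dnajb5 had folds of 6.69 in the infarct, 3.50 in the sham, 6.74 in the IL-4, 10.9 in the knockout and 6.25 in the WT list, and the sham peak rests on 7 reads. Dnajb4, which shares its peak with Fubp1, had folds of 5.92 in the infarct, 5.48 in the IL-4, 5.17 in the knockout and 4.81 in the WT list.

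Dnaja4 had gene-end peaks in all lists, and the strongest lay near its start in all but the infarct list. Its folds were 3.83 in the infarct, 4.70 in the sham, 3.28 in the IL-4, 3.46 in the untreated, 7.58 in the knockout and 4.70 in the WT list. The sham and untreated peaks lie near the start, with summits 241 and 45 bases before it and with 10 (4.80 to 18.4) and 7 (2.81 to 14.4) reads. The infarct list had 3 gene-end peaks there, of which the strongest is at the far end, shared with Wdr61, and overlapped no WT H3K4me3 peak. Another, with a fold of 3.22, covers the start. Among nuclear J proteins, Dnajc17, linked to the spliceosome, had folds of 7.31 in the infarct and 7.03 in the IL-4 list, and 9.62 in the knockout and 6.62 in the WT list, with no gene-end peak in the sham and untreated lists.

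Small heat shock proteins, which hold unfolded proteins in large oligomers without ATP, mostly had weak peaks or peaks away from their starts. Hspb1 (chr5:135887919-135889563), the stress-inducible form found in most cells, had a fold of 2.87 with 13 reads (6.92 to 22.2) in the infarct list and, at the far end of the gene, 2.81 with 14 reads (7.65 to 23.5) in the IL-4 list, and no sham or untreated peak. Its H3K4me3 folds were 5.10 with 29 reads in the knockout and 2.51 with 10 reads in the WT list. By q it ranked 9376 of 11072 marked genes in the infarct list and 12282 of 12501 in the WT H3K4me3 list. The 150 bases before its RefSeq start (GRCm38.p6, plus strand, chr5:135887769-135887918) are shown because the infarct peak lies over 2 short heat shock elements there, with GAANNTTC in capitals, 5′ to 3′:
Hspb1: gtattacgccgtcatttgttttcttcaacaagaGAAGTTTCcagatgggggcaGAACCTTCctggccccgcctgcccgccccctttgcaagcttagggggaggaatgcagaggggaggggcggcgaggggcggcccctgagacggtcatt

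Hspb8, a stress-inducible partner of Bag3 in selective autophagy, was the only stress-inducible member with no gene-end peak in the infarct, IL-4 and WT lists. It had a peak in the untreated list, with a fold of 2.71, 6 reads (2.20 to 13.1) and a −log10 q of 0.617, and in the knockout H3K4me3 list, with 3.98 and 15 reads (8.40 to 24.7). The muscle gene Hspb2 had folds of 3.22 in the infarct, 3.28 in the IL-4, 3.79 in the knockout and 2.79 in the WT list. Hspb3, also a muscle gene, had a peak in the sham list alone, with a fold of 3.50, 7 reads (2.81 to 14.4) and a −log10 q of 1.41. Hspb6, a smooth and cardiac muscle protein, had folds of 3.98 in the infarct, 6.15 in the IL-4, 8.08 in the knockout and 5.59 in the WT list, with each strongest peak shared with Proser3. Hspb7, a heart and vessel protein, had folds of 4.21 in the infarct, 4.36 in the IL-4, 6.51 in the knockout and 3.65 in the WT list, with summits 4923 to 5234 bp along from its start. The infarct and IL-4 lists had weaker peaks ahead of the start, with folds of 3.21 and 3.72, and no peak covers it. Hspb9, a testis gene, had folds of 2.95 in the infarct, 3.20 in the IL-4, 2.92 in the knockout and 3.88 in the WT list, and its strongest IL-4 and H3K4me3 peaks also reach an end of Rab5c. No sham or untreated peak was called at Hspb2, Hspb6, Hspb7 or Hspb9.

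Several other tissue-restricted members had weak or no NPM1 peaks. Of those described here, all but Dnajb8 and Dnajc5g had a gene-end H3K4me3 peak in the knockout list. Hspa12a, an atypical HSP70, had no gene-end NPM1 peak and H3K4me3 folds of 10.7 in the knockout and 6.83 in the WT list. Its endothelial relative Hspa12b likewise had no gene-end NPM1 peak and H3K4me3 folds of 5.79 in the knockout and 3.01 in the WT list. Dnajc12, a cochaperone of aromatic amino acid hydroxylases, had folds of 3.70 in the infarct, 3.25 in the IL-4, 6.25 in the knockout and 4.10 in the WT list. Dnajb3, a testis J protein, had 1 peak, in the knockout H3K4me3 list, with a fold of 8.64 and 32 reads (21.9 to 45.2). Dnajc22 had 1 gene-end peak, also in the knockout H3K4me3 list, with a fold of 3.72. Dnajb13, a sperm flagellum protein, had folds of 2.29 in the infarct and 2.47 in the knockout list. Dnajb8 and Dnajc5g, both testis genes, had a peak in the infarct list alone, with folds of 2.22 and 2.93 and −log10 q of 0.715 and 1.69. The infarct peaks of Dnajb8 and Dnajb13 rest on 13 and 10 reads.

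The infarct list was set against the sham list to ask where NPM1 sits on chromatin after infarction. A gene-end peak in the infarct list only was found at 52 members, beside 43.4% of all genes, in the sham list only at 1, Hspb3, beside 3.75%, and in both lists at 9, beside 7.14%. Among genes marked in the infarct list, 52 of 61 members and 9509 of 11072 genes had no sham peak. The higher infarct-only share of members thus goes with the higher share of members marked in that list. The 9 were the constitutive members Dnaja1, Dnajb12, Dnajc3 and Dnajc11, the stress-inducible members Dnaja4, Dnajb5, Hsp90aa1 and Hspa1a, and Hspa1l. The median number of bases covered by peaks within 2 kb of a gene end was 813.5 bp over the members in the infarct list and 0 bp in the sham list, beside 266 bp and 0 bp over all genes. It was larger in the infarct list at 63 members and smaller at 1, beside 55.7% and 7.11% of all genes. Of the 8 members with a sham peak and a RefSeq start, 0 had the start inside the strongest sham peak, beside 5.55% of all such genes. In the infarct list 38 of 49 did (77.6%), beside 64.2%, and the strongest peaks of members were wider there, with a median of 773 bp against 208 bp in the sham list, beside 554 bp and 226 bp over all marked genes. With the reads and local background of each infarct peak scaled down to the sham background, 59 members kept a gene-end peak, beside 47.3% of all genes. Before scaling it was 61 members, beside 50.6% of all genes. Only peaks already called were scaled, without counting noise, so this does not show what a shallower library would have called.

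IL-4-treated macrophages were set against untreated ones in the same way. A peak in the IL-4 list only was found at 53 members, beside 46.5% of all genes, in the untreated list only at 1, Hspb8, beside 1.98%, and in both at 5, beside 4.73%. Among genes marked in the IL-4 list, 53 of 58 members and 10179 of 11214 genes had no untreated peak. The 5 were Hspa4, Hspa8, Hsp90b1, Dnaja4 and Hspa2. Median covered bases over the members were 830 bp in the IL-4 list and 0 bp in the untreated list, beside 283 bp and 0 bp over all genes. They were larger in the IL-4 list at 62 members and smaller at 1, beside 58% and 3.59% of all genes. Scaled to the untreated background, with the same limit, the IL-4 list had a gene-end peak at 55 members in place of 58. Of all genes, 43.4% had one in place of 51.2%. The enrichment of a library enters every count, and with 1 library a group it cannot be told apart from treatment or injury.

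The infarct and IL-4 lists both marked 56 members, the IL-4 list alone marked Dnajc10 and Dnajc28, and the infarct list alone marked Dnajb8, Dnajb13, Dnajc5, Dnajc5g and Dnajc25, beside 43.5%, 7.75% and 7.1% of all genes. Covered bases were more in the IL-4 list at 32 members and more in the infarct list at 34, beside 34.2% and 32% of all genes. Of the 10 members with the highest −log10 q, 8 were the same in both lists, among them Hspa1a and Hspa1l with their 1 shared peak. Over the 56 members the folds of the 2 lists had a Spearman rho of 0.882, beside 0.809 over the 9518 genes marked in both, given as a description of values that share base composition and mappability.

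H3K4me3 in knockout macrophages was set against WT after infarction to ask where the promoter mark differs without Npm1. Both lists marked 60 members, beside 53.4% of all genes, the knockout list alone marked 6, beside 8.37%, and the WT list alone marked 0, beside 3.73%. The 6 were Dnajb3, Dnajb13, Dnajc5, Dnajc22, Dnajc25 and Hspb8, none of them past a −log10 q of 5 apart from Dnajb3 at 20.8. Outside the 1 kb window but within 2 kb, WT peaks covered 727 bp at Dnajc5 and 455 bp at Dnajc22. At the others of the 6 they covered 0 bp. Peaks covered more bases within 2 kb of a gene end in the knockout list at 64 members, fewer at 3 and the same number at 7, beside 62.6% and 7.59% of all genes for more and fewer. The median was 1813.5 bp in the knockout and 1004 bp in the WT list over the members, and 1041 bp and 458 bp over all genes. The median of the paired differences was 696 bp for the members and 304 bp for all genes. Genes with no gene-end peak in either list are included, 8 of 74 members and 7554 of 21887 genes. These medians therefore also carry how many genes are marked, and do not compare widening at marked genes alone.

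The largest difference in covered bases was at Hspb1, with 1827 bp in the knockout and 259 bp in the WT list. Dnajc4, a mitochondrial membrane J protein, followed with 2835 bp in the knockout and 1412 bp in the WT list, and Hsp90b1 with 2717 bp in the knockout and 1295 bp in the WT list. Dnaja4 had 1800 bp in the knockout and 427 bp in the WT list, and Hspb2 had 1584 bp in the knockout and 236 bp in the WT list. These 5 include genes with little WT signal, Hspb1, Hspb2 and Dnaja4, and genes with more covered bases in WT, Dnajc4 and Hsp90b1, each summed over several peaks. Covered bases were fewer in the knockout list at Dnajb2, a J protein that also binds ubiquitin, with 1324 bp in the knockout against 1570 bp in the WT list, at Dnajc22, with 280 bp in the knockout against 455 bp in the WT list, and at Dnajc1, by 1 bp. The 7 members with equal values all had 0 bp in both lists, and they are Dnajb7, Dnajb8, Dnajc5b, Dnajc5g, Dnajc6, Dnajc18 and Hspb3. Hspa8, which led the NPM1 lists, differed by 134 bp, with 1857 bp in the knockout and 1723 bp in the WT list.

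**Figure D4:**
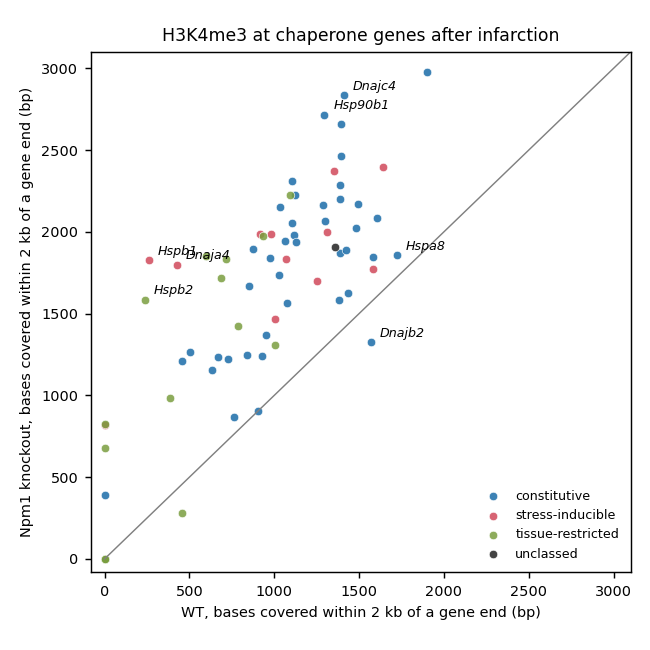
Bases covered by H3K4me3 peaks within 2 kb of a gene end (bp) in Npm1 knockout (vertical axis) and WT (horizontal axis) cardiac macrophages after infarction, 1 point per member, coloured by class; the line marks equal values. Of 74 members, 64 lie above the line, 3 below it and 7 at the origin.

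Folds come from the same libraries as the covered bases and are no separate check of them. At 59 of the 60 members marked in both lists the knockout fold was the higher, with Hspb9 the exception, and so it was at 11030 of the 11685 genes marked in both. Median folds were 7.59 in the knockout and 5.0 in the WT list over these members, and 8.23 and 5.13 over all genes. The knockout fold was thus the higher at most genes marked in both lists, members or not. Each fold is a ratio to the local background at the summit, so it does not give the difference in reads. At Dnaja1, for example, the knockout summit had 215 reads over a local background of 29.3. The WT summit there had 32 reads over 5.74. With 1 library a group, the enrichment of a library cannot be told apart from the genotype, for folds as for covered bases. By −log10 q, the leading knockout members were Dnajc19 (230), Hspb11 (188), Dnajc11 (185), a J protein of the mitochondrial inner-membrane organising system, Dnajc17 (177), Dnaja3 (173) and Dnajc15 (164), of which 4 are mitochondrial J proteins.

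NPM1 and H3K4me3 were compared in WT infarct macrophages, in separate libraries of the same labelled cells. Both were called at 55 members, beside 45.3% of all genes, NPM1 alone at 6, beside 5.33%, and H3K4me3 alone at 5, beside 11.9%. NPM1 covered more bases than H3K4me3 at 27 members and fewer at 42, beside 20.6% and 48.4% of all genes. NPM1 alone marked Dnajb8, Dnajb13, Dnajc5, Dnajc5g, Dnajc18 and Dnajc25. At Dnajc5, WT H3K4me3 peaks covered 727 bp within 2 kb of a gene end, outside the 1 kb window. H3K4me3 alone marked Dnajc10, Dnajc24, Dnajc28, Hspa12a and Hspa12b. Dnajc24, which works in the synthesis of diphthamide on elongation factor 2, had no gene-end NPM1 peak in any list and an H3K4me3 fold of 14.4 in the knockout and 5.10 in the WT list.

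At 53 of the 61 members with an infarct NPM1 peak (86.9%) that peak overlapped a WT H3K4me3 peak, beside 84.2% of all genes with such a peak. The median distance between the paired summits was 142 bp for members and 99 bp for all genes. The NPM1 fold was above the H3K4me3 fold at 32 of the 53 members (60.4%), against 34.9% of all genes, including 8 of 10 stress-inducible, 19 of 36 constitutive and 4 of 6 tissue-restricted members. Among those, the widest gaps were at Hsp90aa1, with an NPM1 fold of 9.77 and an H3K4me3 fold of 4.45, at Hspa9, with 8.87 and 5.20, and at Hspa8, with 8.72 and 5.49. In the other direction the widest gap was at Dnajc19, with an NPM1 fold of 3.22 and an H3K4me3 fold of 10.9. Hspa1a with Hspa1l, and Hspd1 with Hspe1, each share 1 peak, which enters these counts at both genes. The 2 libraries differ in antibody and depth, so the ratio at a gene is not an amount of protein.

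In the deeper lists most summits lay close to annotated starts, where a start and strand were known. Of the 60 members with a RefSeq start in the promoter table, 49 had a peak within 1 kb of it in the infarct list, beside 49.6% of all genes with a start, and 6 in the sham list, beside 6.07%. In the IL-4 list 49 had one, beside 49.5%, and in the untreated list 3, beside 5.16%. In the knockout H3K4me3 list 54 had one, beside 62.8%, and in the WT H3K4me3 list 51, beside 57.9%. The median summit of the strongest gene-end peak lay 88 bases before the start in the infarct list (−88) and 81 before it in the IL-4 list (−81). It was at −11 bases in the knockout and at −78.5 bases in the WT H3K4me3 list.

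**Figure D5:**
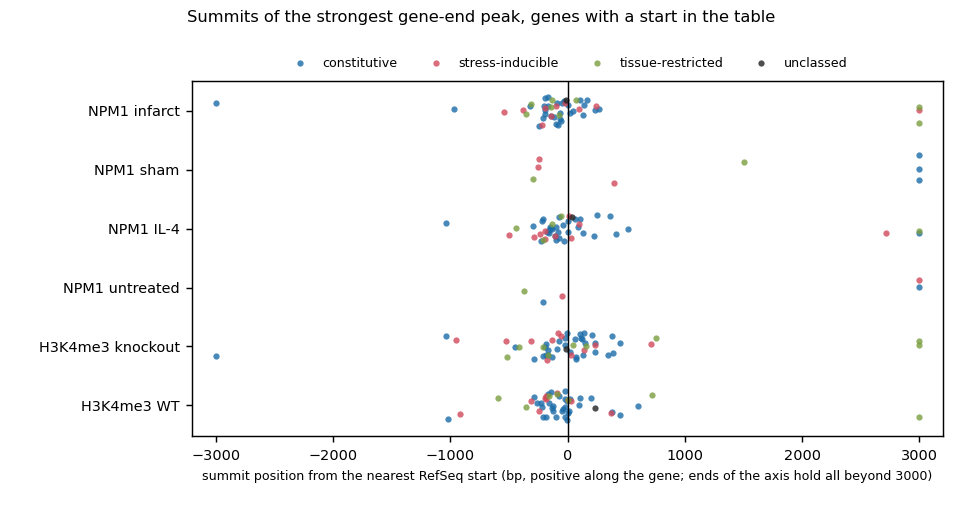
Position of the summit of the strongest gene-end peak relative to the nearest RefSeq start (bp, horizontal axis, positive along the gene; values past 3000 bp are drawn at the edge) for members with a start, in each of the 6 lists (rows, points scattered vertically for legibility), coloured by class. In the infarct list 43 of 49 summits lie within 500 bp of a start, in the sham list 4 of 8.

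The bases around the starts were described for the same 60 members. The median ratio of observed to expected CpG in the window from 250 bases before to 50 after the start was 0.812 for the 60 members and 0.564 for all 17492 genes in the table, and 0.861, 0.772 and 0.521 for constitutive, stress-inducible and tissue-restricted members. Median GC content was 61.9% for members and 56.3% for all genes. Dnajb7, with no peak in any list, had the lowest ratio of the members, 0.0790. Dnajc1 and Dnajc6, also without a gene-end peak in any list, had ratios of 0.623 and 0.592, above the median of all genes. The 3-unit heat shock element was found in the window of 4 members (6.67%), Dnajb6, Hspd1, Hspe1 and Hsph1, and at 0.595% of all windows, with Hspd1 and Hspe1 sharing theirs. The 2-unit form GAANNTTC or TTCNNGAA, which the longer motif contains, was found at 16 members (26.7%) and 15.7% of all windows, and at 7 of 11 stress-inducible members (63.6%). A TATA box, searched as TATAAA or TTTATA, was found at 4 members (6.67%), Dnajc19, Dnajc24, Hspb3 and Hspb6, and at 14.8% of all windows. A match describes the letters in the window and is not a bound site.

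Partners that work with these chaperones were marked about as often as the constitutive members. The 32 partners include heat shock factors, BAG proteins, HSP90 cochaperones and subunits of the cytosolic chaperonin. Of these genes, 30 had a gene-end peak in the infarct, 5 in the sham, 28 in the IL-4 and 2 in the untreated list. In the knockout list 31 had one, and in the WT list 31. The shares in this order were 93.8%, 15.6%, 87.5%, 6.25%, 96.9% and 96.9%. Those of all genes were 50.6%, 10.9%, 51.2%, 6.71%, 61.8% and 57.1%. Hsf1, the master activator of the heat shock response, had folds of 7.07 in the infarct, 7.55 in the IL-4, 8.37 in the knockout and 7.66 in the WT list, and Hsf2 had no gene-end peak in any list. St13, an HSP70 cochaperone, and Stip1, which links HSP70 to HSP90, had infarct folds of 10.8 and 8.37 and IL-4 folds of 10.4 and 7.49, and neither had a sham or untreated peak. Bag3, the partner of Hspb8, had folds of 5.08 in the infarct, 5.51 in the IL-4, 9.94 in the knockout and 6.41 in the WT list. The chaperonin subunits Cct3 and Cct7 were the 2 partners marked in the untreated list, both with a fold of 3.46.

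Some of these peaks lie close to an end of a neighbouring gene as well. In the infarct list 21 of the 61 marked members (34.4%) had a strongest peak that also reached within 1 kb of an end of another protein-coding gene, beside 27.1% of all marked genes, and in the IL-4 list 22 of 58 (37.9%), beside 26.7%. In the knockout H3K4me3 list it was 21 of 66 (31.8%), beside 26.2%, and in the WT H3K4me3 list 21 of 60 (35%), beside 25.7%. Beside those already named, Hspb11 shared its peak with Lrrc42, Hspa14 with Cdnf, Dnajb11 with Tbccd1, Dnajc2 with Psmc2 and Dnajc30 with Bud23. Hspb11 had folds of 9.96 in the infarct, 10.7 in the IL-4, 11.0 in the knockout and 6.99 in the WT list, and such a peak cannot be given to 1 gene of the pair.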

How the data were processed

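Peak lists of 6 CUT&Tag libraries were analysed, 1 per group. The submitters' processing notes name MACS2 2.2.7.1, Bowtie2, deepTools, bcl2fastq 2.17 and the build mm10; they do not tell the settings, the treatment of duplicates or any control. Each narrowPeak list holds, as deposited by the authors, a score (10 times the −log10 p, to within 1), a fold enrichment (a ratio at the summit), a −log10 p and a −log10 q. Between 5.01% and 27.8% of a list's peaks had a deposited q above 0.05.

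Positions are 1-based. The reads over each summit and the local background were solved from fold and −log10 p (whole within 0.001 for at least 99.9% of summits in each list), with exact 95% Poisson intervals; the most frequent background stands for depth. The gene table gives no strand, so windows were set at both gene ends, and exons and introns were not told apart. Starts, strand and promoters came from RefSeq (GRCm38.p6) for 60 members; no protein or genome sequence was used, so the planned protein motifs were not searched. The ER stress element was added after the data were seen. Members, classes and lists were chosen with earlier results of these data known. Named were all stress-inducible members, 7 core chaperones, the strongest 6 per comparison, members in the second list only, all marked tissue-restricted members, unmarked members, and those with the 5 largest and smallest H3K4me3 differences; others were named to complete a count or a role after their values were seen. Counts were checked on simulated lists. Python 3.11.15, numpy 2.4.6, pandas 2.3.3, scipy 1.17.1 and matplotlib 3.10.9 were used. Alternatives were q cutoffs, windows, summits, equal list lengths, starts only and, after the data were seen, depth scaling.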

Additional observations from a re-analysis of the deposited data

How the results depend on the processing

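Of 176 recomputed values of the main counts and medians, 156 stayed within 1.5 times the reported one and 20 did not. The 20 are mostly in the 2 shallow lists. Sham members numbered 16 with a 2.5 kb window (beside 21.8% of all genes, so that 16 of 74 is no longer the higher share), 6 with a 500 bp window (6.38%) and 0 at a −log10 q of 5 or more (0.681%), against 10 reported. Untreated members numbered 3 with q of 0.05 or less (4.76%) and 1 at a −log10 q of 5 or more (0.397%), against 6. At RefSeq starts only, which leaves 60 members, they numbered 6 in the sham list (6.07%) and 3 in the untreated list (5.16%), where the same 60 had gene-end peaks at 8 and 5. The sham peak absent from the infarct list (Hspb3) was 0 with a 500 bp window and at a −log10 q of 5 or more. The untreated peak absent from the IL-4 list (Hspb8) was 0 with a 500 bp window, at starts only, with lists of equal length, with q of 0.05 or less and at a −log10 q of 5 or more. Members marked in the knockout and not the WT H3K4me3 list numbered 3 with a 2.5 kb window, against 6, and 3 at starts only, against 4 of the same 60 members, and those in the WT and not the knockout list numbered 1 with summits in the window, against 0. Tissue-restricted members at a −log10 q of 5 or more numbered 4 in the infarct list, against 10, and 4 in the IL-4 list, against 7. The median knockout minus WT difference in covered bases was 445 bp within 1 kb, against 696 bp. Scaling the deeper list to the shallower background, chosen after the data were seen, left 59 infarct, 55 IL-4 and 60 WT members (47.3%, 43.4% and 57.1% of all genes). It used only peaks already called and added no counting noise. Where a setting moved a count, the cause was not tested, beyond the fewer peaks or narrower windows it allows. Of the other recomputed values, 105 stayed within that range and 23 did not.

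No paired analysis was possible because each group has 1 library. The sham and untreated lists have backgrounds of 1.29 and 1.31 reads, and their strongest member peaks rest on 5 to 14 reads, so folds there have wide counting error.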
